A study of Mus musculus with 14 samples.

Results

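The circadian clock of mammals is built from a small set of genes whose products regulate each other's transcription, and 10 of them were followed here in a muscle cell line moved to 3 differentiation media. The genes were found by symbol in a table of 49671 genes, and each of the 10 symbols matched 1 row. The list holds the activators Arntl (the gene of BMAL1) and Clock, the repressors Per1, Per2, Per3, Cry1 and Cry2, the nuclear receptors Nr1d1 and Nr1d2 (REV-ERBα and REV-ERBβ), and the output factor Dbp. All 10 passed the filter on low counts that left 15973 genes for testing.

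C2C12 is an immortalised line of mouse myoblasts that fuse into myotubes when serum is withdrawn. The day 0 group was kept in proliferation medium with 20% fetal calf serum (FCS). DM1 held 2% horse serum (HS) and served as the myogenic medium. DM2 held 10% FCS with insulin (1 µg/ml), the phosphodiesterase inhibitor IBMX (0.5 mM), the synthetic glucocorticoid dexamethasone (0.5 µM) and the PPARγ agonist rosiglitazone (2 µM), a mixture used to induce fat cells. DM3 combined 2% HS with the same 4 agents. Cells in each medium were collected on day 2 and day 7, which with day 0 gives 7 groups of 2 libraries, and the medium was renewed every other day. The labels give the day but neither the hour of collection nor the hours since the last renewal, so that hour and group cannot be told apart. Nor do they say that the 2 libraries of a group are from separate cultures. The p-values thus rest on a spread between libraries that may be technical.

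In the core loop, CLOCK and BMAL1 bind E-box sequences and activate the Per and Cry genes, Nr1d1, Nr1d2 and Dbp. PER and CRY proteins then inhibit CLOCK and BMAL1, while the REV-ERB receptors repress Arntl through elements that they share with the activating ROR receptors. In cultured cells each cell keeps its own rhythm, and serum, glucocorticoids and agents that raise cAMP are known to induce Per genes and to set the rhythms of many cells to a common phase.

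Library totals ran from 21907617 to 29784885 expected counts, and the smallest count of any clock gene in any library was 71. Levels are given as CPM, the count relative to the scaled library size, for replicate 1 and then replicate 2. The myoblast and muscle list (Myod1, Myf5, Myog, Des, Pax7 and Cdh15) was expressed at 5 of 6 genes in every group, with Pax7 under 1 CPM in each library, and its summed level ran from 895 and 1008 CPM in DM2 at day 7 to 3889 and 3735 CPM in DM3 at day 7. The 6 adipocyte markers summed to at most 9.26 CPM, with Lep at 0 counts and only Fabp4 over 1 CPM. The 5 immune markers summed to at most 6.85 CPM, with Adgre1 at 0, and the endothelial, neural and epithelial lists stayed under that. Both of these highest sums were those of DM2 at day 7. A low share of counts on processed pseudogenes was found in 3 libraries. They were replicate 1 of day 0 (1.28%), replicate 1 of DM1 at day 2 (1.29%) and replicate 2 of DM3 at day 2 (0.584%). The last held 17779 genes with a count, where the other libraries held 19698 to 21166. Spearman's correlation between the 2 libraries of DM3 at day 2 was 0.9616, against 0.9875 to 0.9954 in the other groups. Without these 3 libraries 17 of the 120 calls on clock genes were lost, each in a comparison that includes a day 2 group, with adjusted p from 0.0552 to 0.188 in edgeR's quasi-likelihood test. Clock lost 4, those of all 3 media at day 2 against day 0 and that of DM2 between its days. Cry1 also lost 4, those of DM3 at day 2 against day 0, of DM1 between its days, and of DM2 against DM1 and DM3 against DM2 at day 2. Arntl lost 2 (DM1 between its days, and the difference of that change between DM3 and DM1), and Cry2 lost 2 (DM1 at day 2 against day 0, and the same difference of changes). Per1 lost 1 (DM1 at day 2 against day 0), as did Per2 (DM3 against DM1 at day 2). Nr1d2 lost 1 (DM3 at day 2 against day 0), and Nr1d1 and Dbp each lost 1 (DM3 between its days). The share of calls lost over all genes in that fit is not given here.

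The clock genes moved most in DM2 at day 7. Dbp, Per3, Nr1d1 and Nr1d2 had their lowest levels of the study there, and Arntl its highest. Per1, Per2 and Cry2 were lowest at day 0, and Clock was highest at day 0. In bulk RNA, fewer cells that express a gene and less RNA per cell cannot be told apart. Markers of other cell types also differed in DM2 at day 7. The adipocyte markers summed to 9.26 and 7.86 CPM there against 0.523 and 0.375 CPM at day 0, with both members that could be tested higher, Fabp4 (log2 fold change 4.01 ± 0.37, adjusted p = 1.60e-06) and Plin1 (26 and 22 counts against 1 and 1, adjusted p = 0.00260). The immune markers summed to 6.17 and 6.85 CPM against 0.872 and 1.33 CPM, nearly all of it Cd68, the only member tested (log2 fold change 2.60 ± 0.36, adjusted p = 5.99e-05). Of the 3 endothelial markers Kdr was higher (47 and 28 counts against 2 and 2, adjusted p = 3.11e-04), Pecam1 and Cdh5 did not pass, and the list summed to 2.97 and 2.1 CPM against 1.29 and 1.46 CPM. Of the 6 myoblast and muscle genes, Myf5 and Myog were higher and Myod1 and Des lower. In that comparison 24.5% of all genes tested were higher and 30.9% lower. Fabp4 was also higher than at day 0 in DM1 at day 7 (log2 2.68) and DM2 at day 2 (3.36). In DM3 it was higher at day 2 (1.93) and day 7 (1.17), and in DM1 at day 2 lower (-1.76). Cd68 was also higher in DM2 at day 2 (1.38) and DM3 at day 7 (1.81). Plin1 and Kdr passed against day 0 in DM2 at day 7 alone. Cdh1, an epithelial marker under 1 CPM, was higher in DM1 and DM3 at day 7. Cdh5 was higher in DM1 at day 7 and lower in DM2 at day 2. The part of these other cell types in the clock gene values of DM2 at day 7 was not tested.

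**Figure D1:**
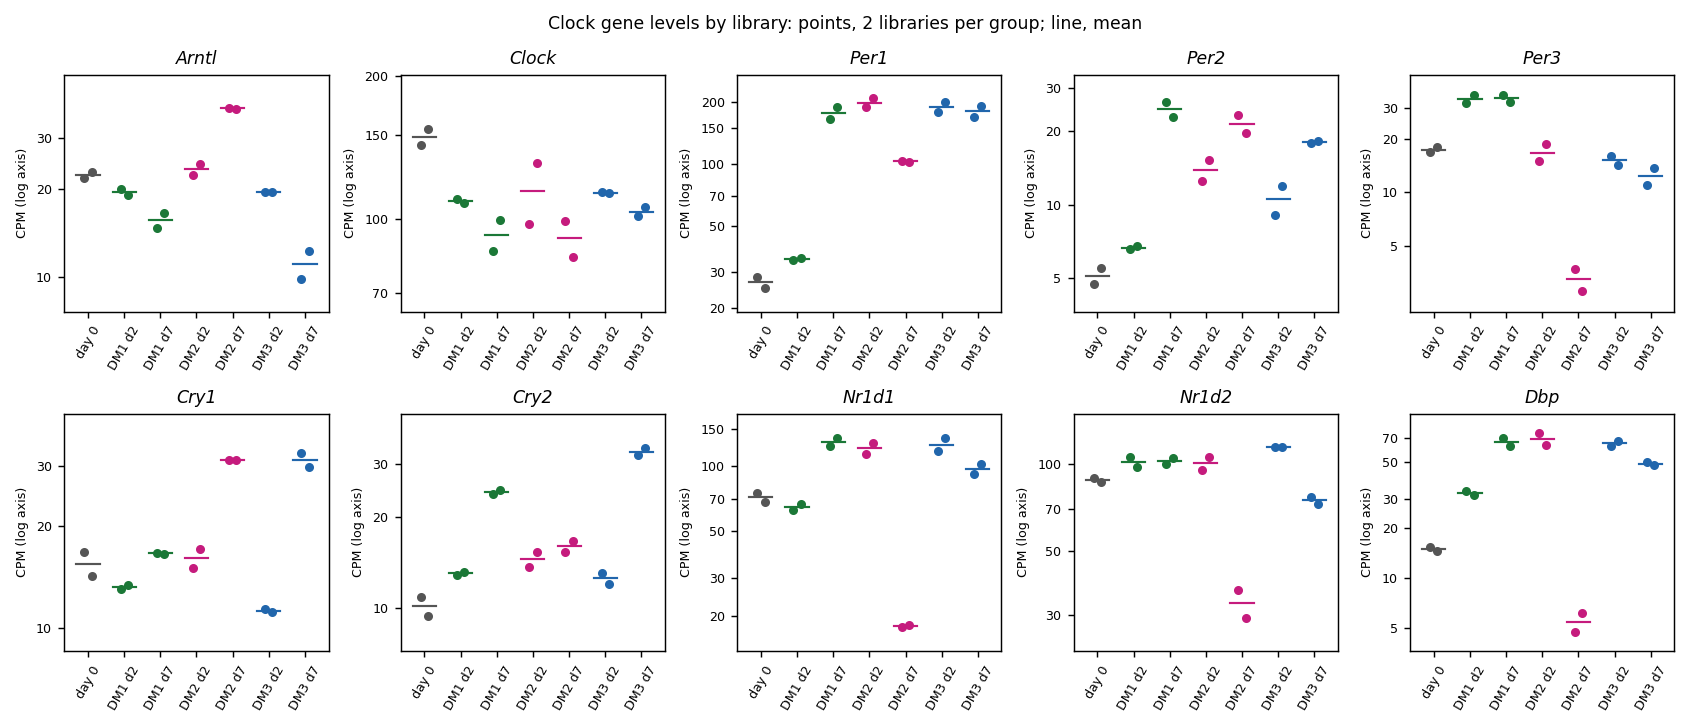
Level of each clock gene in CPM (vertical axis, logarithmic, a different range in each panel) in the 7 groups (horizontal axis). Points are the 2 libraries of a group and the line is their mean. In DM2 at day 7 Dbp stood at 4.74 and 6.14 CPM and Per3 at 3.69 and 2.76 CPM, below every other library, while Arntl stood at 38.1 and 37.7 CPM, above every other library.

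To compare genes, levels were divided by the exon length of each gene. At day 0 Nr1d1 was the highest at 23.3 CPM per kb, followed by Nr1d2 (16.3) and Clock (10.9), and Per2 was the lowest at 0.873 CPM per kb. In DM2 at day 7 Per1 was the highest at 18.3 CPM per kb, followed by Cry1 (9.38) and Clock (6.64). In the same group Nr1d1 was at 5.81, Dbp at 1.82 and Per3, then the lowest, at 0.336 CPM per kb. The span between the highest and the lowest group mean also differed by gene, from 12.8-fold for Dbp, 10.5-fold for Per3, 7.39-fold for Per1 and 7.27-fold for Nr1d1 down to 1.64-fold for Clock. The largest ratio between the 2 libraries of a group was 1.34 over all 10 genes.

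Arntl encodes BMAL1, the partner of CLOCK without which the rhythm stops (ENSMUSG00000055116, GRCm38 chromosome 7, 113207465 to 113314126, plus strand). Its level at day 0 was 21.9 and 22.8 CPM, and with DM1 it was 20.1 and 19.1 CPM on day 2 and 14.7 and 16.5 CPM on day 7. With DM2 the values were 22.4 and 24.4 CPM on day 2 and 38.1 and 37.7 CPM on day 7, and with DM3 they were 19.6 and 19.6 and then 9.85 and 12.2 CPM. The 4 groups of day 0 and day 2 thus lay close together, DM2 at day 7 stood above all of them and DM3 at day 7 below. Against day 0, Arntl rose in DM2 at day 7 (log2 fold change 0.76 ± 0.11, adjusted p = 6.25e-05) and fell in DM3 at day 7 (log2 fold change -1.02 ± 0.11, adjusted p = 5.38e-06) and in DM1 at day 7 (log2 fold change -0.52 ± 0.11, adjusted p = 0.00142). At day 7 the 2 media with the cocktail differed by -1.78 ± 0.11 on the log2 scale (DM3 minus DM2, 3.43-fold, adjusted p = 6.67e-08), whereas at day 2 the difference of -0.26 ± 0.11 did not pass (adjusted p = 0.126). Within DM1, Arntl fell from day 2 to day 7 by 0.33 on the log2 scale (adjusted p = 0.0340), a call that was lost without either library of DM1 at day 2 (0.156 and 0.0843) or without replicate 1 of DM1 at day 7 (0.2), within a range of 0.0265 to 0.200 over all alternatives.

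A ROR response element, the type of site that REV-ERB and ROR receptors share, was looked for in the promoters because Arntl is their best known target. Promoter windows of 250 bases before to 50 bases after the start came from RefSeq (GRCm38.p6), which gave 13 windows for 9 of the 10 genes. One of the 2 Arntl windows held the element on the plus strand, at bases 27 to 37 counted from 1 at the start of that transcript (chr7:113207537-113207547), shown with the element in capitals.
Arntl: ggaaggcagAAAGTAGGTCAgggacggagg
The element, searched on both strands, was in 0.384% of all 32851 windows. The match in Arntl lies after the start, so that a window of the 250 bases before the start does not hold it.

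Clock encodes the bHLH-PAS protein that pairs with BMAL1 (ENSMUSG00000029238, chromosome 5, 76209868 to 76304792, minus strand). The day 0 libraries held 143 and 155 CPM, those of DM1 109.9 and 108 CPM on day 2 and 85.7 and 99.5 CPM on day 7. The DM2 libraries held 97.8 and 131 CPM on day 2 and 99.2 and 83.0 CPM on day 7, and the DM3 libraries 114 and 113 and then 101 and 106 CPM. The libraries of day 0 were the 2 highest, and the 12 other libraries lay between 83.0 and 131 CPM. Clock fell against day 0 in DM1 at day 7 (log2 fold change -0.69 ± 0.13, adjusted p = 7.03e-04), DM2 at day 7 (log2 fold change -0.71 ± 0.13, adjusted p = 5.17e-04) and DM3 at day 7 (log2 fold change -0.52 ± 0.13, adjusted p = 0.00373). At day 2 it fell by 0.45 in DM1, 0.38 in DM2 and 0.39 in DM3 on the log2 scale (adjusted p = 0.0197, 0.0274 and 0.0228). These 6 comparisons share the day 0 libraries, and each day 2 call was lost without replicate 2 of day 0 (adjusted p = 0.107, 0.13 and 0.117, within ranges over all alternatives of 0.00263 to 0.113, 0.00193 to 0.147 and 0.00976 to 0.117). The DM1 call was also lost without replicate 1 of day 0 (0.0507) or either DM1 library (0.0859 and 0.0986), the DM2 call without replicate 1 of day 0 (0.0512) or replicate 1 of DM2 (0.147), and the DM3 call without either DM3 library (0.0605 and 0.0733). No comparison between media at the same day passed for Clock, with log2 differences from -0.02 to 0.19. Its fall from day 2 to day 7 in DM2 (log2 fold change -0.33 ± 0.13, adjusted p = 0.0472) was lost under 8 alternatives, among them without replicate 2 of DM2 at day 2 (0.526) or replicate 2 of DM2 at day 7 (0.315), within a range of 0.00312 to 0.526.

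Per1 encodes a repressor of CLOCK and BMAL1 and is known as an immediate target of glucocorticoids and cAMP (ENSMUSG00000020893, chromosome 11, 69095217 to 69109960, plus strand). The 250 bases before one of its RefSeq starts (chr11:69098699-69098948, plus strand) are shown because they hold an E-box, CACGTG, in capitals.
Per1: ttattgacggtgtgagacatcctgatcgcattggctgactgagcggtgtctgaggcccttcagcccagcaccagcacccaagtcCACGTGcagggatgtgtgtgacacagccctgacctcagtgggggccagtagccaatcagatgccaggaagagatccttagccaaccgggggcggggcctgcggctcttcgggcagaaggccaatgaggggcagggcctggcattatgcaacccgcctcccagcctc
The E-box reads the same on both strands, lies 166 to 161 bases before the start and was in 7.15% of all promoter windows. Neither of the 2 Per1 windows matched the cAMP response element TGACGTCA (1.79% of all windows). Neither matched the glucocorticoid response element, GNACA and TGTNC with 3 bases between them (0.475%). Both elements were searched on both strands, in these windows and forms alone.

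With DM1, Per1 stood at 34.2 and 34.9 CPM on day 2 and 165 and 188 CPM on day 7, against 28.5 and 25.1 CPM in proliferating cells. DM2 gave 188 and 208 CPM on day 2 and 103 and 102 CPM on day 7, and DM3 gave 178 and 200.3 and then 169 and 191 CPM. Day 0 and DM1 at day 2 were thus low, DM2 at day 7 was intermediate, and the 4 other groups were high with overlapping libraries. Per1 rose over day 0 by 7.39-fold in DM2 at day 2 (log2 fold change 2.89 ± 0.11, adjusted p = 4.81e-09), 7.07-fold in DM3 at day 2 and 6.58-fold in DM1 at day 7, the last without any of the 4 agents in the medium. The smaller rise in DM1 at day 2 (log2 fold change 0.37 ± 0.10, adjusted p = 0.0185) was lost without replicate 2 of day 0 (0.157) or either library of DM1 at day 2 (0.0742 and 0.1), within a range of 0.00559 to 0.157 over all alternatives. From day 2 to day 7 Per1 rose in DM1 (log2 fold change 2.35 ± 0.11, adjusted p = 2.39e-08), fell in DM2 (log2 fold change -0.94 ± 0.10, adjusted p = 8.52e-06) and did not pass in DM3 (log2 difference -0.07 ± 0.10, adjusted p = 0.571).

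A list of 10 known glucocorticoid targets (Fkbp5, Tsc22d3, Klf9, Sgk1, Dusp1, Errfi1, Zbtb16, Mt1, Mt2 and Cebpd) gives the values that stood beside Per1. Their summed level was 642 and 598 CPM at day 0 and 930.2 and 895 CPM in DM1 at day 2. It was 2660 and 2503 CPM in DM2 and 2577 and 2713 CPM in DM3 at day 2, where Per1 had its highest group means. At day 7 it was 3365 and 3566 CPM in DM1 and 4748 and 4549 CPM in DM3. In DM2 at day 7, where Per1 was intermediate, it was 4462 and 4728 CPM. In DM1, 9 of the 10 were higher than at day 0 by day 7 (27.7% of all genes) and none lower (25.8%). Their median log2 fold change there was 3.19 against 0.06 over all genes tested. In DM1 at day 2 the counts were 4 and 1 (15.2% and 14.6%). DM2 had 8 and 0 at day 2 (23.5% and 26.2%) and 8 and 1 at day 7 (24.5% and 30.9%). DM3 had 10 and 0 at day 2 (25.5% and 25.4%) and 9 and 0 at day 7 (28.9% and 30.1%). Of 11 known cAMP targets, 4 were higher and 3 lower than at day 0 in DM1 at day 7. The part of these pathways in the level of Per1 was not tested.

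Per2 encodes the second PER repressor (ENSMUSG00000055866, chromosome 1, 91415982 to 91459324, minus strand). Its level at day 0 was 4.74 and 5.48 CPM, and with DM1 it was 6.59 and 6.75 CPM on day 2 and 26.2 and 22.9 CPM on day 7. With DM2 the values were 12.5 and 15.3 CPM on day 2 and 23.4 and 19.6 CPM on day 7, and with DM3 they were 9.11 and 11.9 and then 17.8 and 18.2 CPM. All 3 groups of day 7 were above all 3 groups of day 2, with no overlap. Per2 rose over day 0 by 4.81-fold in DM1 at day 7 (log2 fold change 2.27 ± 0.16, adjusted p = 1.92e-07), 4.20-fold in DM2 at day 7 (log2 fold change 2.07 ± 0.16, adjusted p = 3.35e-07) and 3.52-fold in DM3 at day 7 (log2 fold change 1.82 ± 0.16, adjusted p = 7.70e-07). At day 2 it rose in DM2 (1.44 on the log2 scale) and DM3 (1.04), and its difference in DM1 of 0.38 ± 0.16 did not pass (adjusted p = 0.0912). In DM2 at day 7, where Dbp, Nr1d1 and Per3 were at their lowest, Per2 was thus near its highest level, and its difference from DM1 at day 7 was -0.19 ± 0.15 (adjusted p = 0.286). The rise from day 2 to day 7 in DM2 (log2 fold change 0.63 ± 0.15, adjusted p = 0.00358) did not pass with scaling by library totals alone (0.0598), within a range of 3.97e-04 to 0.0598. The higher level in DM3 than in DM1 at day 2 (log2 0.66) was lost without replicate 2 of DM3 at day 2 (0.0685, range 0.00106 to 0.188). The lower level in DM3 than in DM1 at day 7 (log2 -0.45) was lost without replicate 1 of DM1 (0.169) or either DM3 library (0.116 and 0.0907, range 0.00291 to 0.169).

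Per3 encodes the third PER protein, which is not needed for the rhythm itself (ENSMUSG00000028957, chromosome 4, 151003652 to 151044665, minus strand). The 250 bases before its start (chr4:151044666-151044915, minus strand) are shown because they hold 2 copies of the D-box TTATGTAA, the type of site bound by DBP, TEF, HLF and the repressor NFIL3, in capitals.
Per3: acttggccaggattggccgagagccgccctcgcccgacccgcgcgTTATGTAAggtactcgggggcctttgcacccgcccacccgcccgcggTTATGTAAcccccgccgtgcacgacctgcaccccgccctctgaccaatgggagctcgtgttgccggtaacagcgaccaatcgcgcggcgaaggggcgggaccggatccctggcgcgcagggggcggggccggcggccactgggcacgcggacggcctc
The copies lie 205 to 198 and 158 to 151 bases before the start. A D-box, searched as TTATGTAA or TTACGTAA on both strands, was in 1.06% of all promoter windows and in none of the other windows of the clock genes.

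Per3 stood at 16.8 and 18.1 CPM in proliferating cells, 32 and 35.4 CPM on day 2 of DM1 and 35.5 and 32.2 CPM on day 7. Under DM2 it stood at 14.9 and 18.6 CPM on day 2 and 3.69 and 2.76 CPM on day 7, and under DM3 at 15.9 and 14.4 and then 11.1 and 13.7 CPM. The 4 libraries of DM1 were the highest and the 2 of DM2 at day 7 the lowest by a wide margin. Per3 rose over day 0 in DM1 at day 2 (log2 fold change 0.95 ± 0.15, adjusted p = 5.46e-04) and at day 7 (log2 fold change 0.96 ± 0.15, adjusted p = 1.73e-04) and fell in DM2 at day 7 (log2 fold change -2.43 ± 0.17, adjusted p = 1.32e-07). It was the only member of the Per family that fell below day 0 in any group. At day 7 it was 10.5-fold lower in DM2 than in DM1 (log2 fold change -3.39 ± 0.17, adjusted p = 1.44e-08) and 2.73-fold lower in DM3 than in DM1 (log2 fold change -1.45 ± 0.15, adjusted p = 9.55e-06). The same direction held at day 2 for DM2 against DM1 (log2 -1.01 ± 0.15, adjusted p = 2.46e-04) and DM3 against DM1 (-1.15 ± 0.15, adjusted p = 9.46e-05), which share the DM1 libraries. Its fall below day 0 in DM3 at day 7 (log2 fold change -0.49 ± 0.15, adjusted p = 0.0140) was lost without replicate 2 of day 0 (0.0756) or replicate 1 of DM3 at day 7 (0.14), within a range of 0.00247 to 0.140.

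Cry1 and Cry2 encode the cryptochromes, the repressors that bind CLOCK and BMAL1 directly. Cry1 (ENSMUSG00000020038) lies on chromosome 10, 85131700 to 85185064, and Cry2 (ENSMUSG00000068742) on chromosome 2, 92403646 to 92434043, both on the minus strand. The 250 bases before the start of Cry1 (chr10:85185055-85185304, minus strand) are shown for the second E-box found among the clock gene windows, in capitals.
Cry1: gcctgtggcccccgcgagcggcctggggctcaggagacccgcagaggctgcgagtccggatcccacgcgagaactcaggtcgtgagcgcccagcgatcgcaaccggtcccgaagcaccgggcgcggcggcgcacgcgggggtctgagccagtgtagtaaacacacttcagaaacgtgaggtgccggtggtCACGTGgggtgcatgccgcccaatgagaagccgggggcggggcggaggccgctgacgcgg
This E-box lies 60 to 55 bases before the start. The windows of Clock, Cry2, Nr1d1, Nr1d2 and Dbp held none of the motifs searched. Sites outside the windows and other forms of the motifs were not searched. The absence thus does not tell whether these genes hold such sites elsewhere.

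With DM1, Cry1 stood at 13.1 and 13.4 CPM on day 2 and 16.7 and 16.5 CPM on day 7, against 16.8 and 14.2 CPM in proliferating cells. DM2 gave 15.1 and 17.1 CPM on day 2 and 31.3 and 31.3 CPM on day 7, and DM3 gave 11.4 and 11.2 and then 32.9 and 29.8 CPM. The 4 libraries of DM2 and DM3 at day 7 stood apart from the 10 others. Cry1 rose over day 0 in DM2 at day 7 (log2 fold change 1.01 ± 0.10, adjusted p = 3.83e-06) and in DM3 at day 7 (log2 fold change 1.02 ± 0.10, adjusted p = 3.01e-06), and its difference in DM1 at day 7 of 0.10 ± 0.10 did not pass (adjusted p = 0.448). At day 7 Cry1 was higher in DM2 than in DM1 (log2 0.91) and in DM3 than in DM1 (0.92), while DM3 and DM2 differed by 0.00 ± 0.10 (adjusted p = 0.995). The fall below day 0 in DM3 at day 2 (log2 fold change -0.46 ± 0.10, adjusted p = 0.00274) was lost without the 3 libraries of low pseudogene share (0.14, range 0.00166 to 0.140). Small calls of Cry1 for DM2 against DM1 at day 2 (log2 0.28) and for day 7 against day 2 in DM1 (0.33) were each lost when any 1 of the 4 libraries compared was left out (adjusted p from 0.0595 to 0.27 and from 0.088 to 0.146).

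Cry2 stood at 10.9 and 9.40 CPM in proliferating cells, 12.9 and 13.2 CPM on day 2 of DM1 and 23.8 and 24.5 CPM on day 7. Under DM2 it stood at 13.7 and 15.3 CPM on day 2 and 15.3 and 16.6 CPM on day 7, and under DM3 at 13.1 and 12.1 and then 32.1 and 33.7 CPM. Day 0 was the lowest group, and DM3 and DM1 at day 7 were the highest and did not overlap. Cry2 rose over day 0 by 3.24-fold in DM3 at day 7 (log2 fold change 1.70 ± 0.10, adjusted p = 3.46e-08), 2.38-fold in DM1 at day 7 (log2 fold change 1.25 ± 0.10, adjusted p = 8.52e-07) and 1.58-fold in DM2 at day 7 (log2 fold change 0.66 ± 0.10, adjusted p = 1.64e-04). From day 2 to day 7 it rose in DM1 (log2 0.89) and DM3 (1.39), and in DM2 the difference of 0.14 ± 0.10 did not pass (adjusted p = 0.274). The ratio of Cry1 to Cry2 in CPM was 2.04 and 1.88 in DM2 at day 7 and 0.702 and 0.675 in DM1 at day 7. Its day 2 rises in DM1 (log2 0.37) and DM3 (0.31) were lost without replicate 2 of day 0 (adjusted p = 0.167 and 0.219, within ranges of 0.00687 to 0.167 and 0.0197 to 0.219), the first also without either DM1 library (0.0766 and 0.104) and the second without replicate 1 of DM3 (0.128). The higher level in DM3 than in DM1 at day 7 (log2 0.45) did not pass with scaling by library totals alone (0.0867, range 0.00113 to 0.0867).

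Nr1d1 encodes REV-ERBα, a receptor for heme that represses Arntl (ENSMUSG00000020889, chromosome 11, 98767932 to 98775333, minus strand). The day 0 libraries held 75.2 and 67.9 CPM, those of DM1 62.4 and 66.4 CPM on day 2 and 125 and 135 CPM on day 7. The DM2 libraries held 114 and 129 CPM on day 2 and 17.8 and 18.0 CPM on day 7, and the DM3 libraries 118 and 136 and then 92.3 and 103 CPM. Day 0 and DM1 at day 2 lay close together, 4 groups lay above them and DM2 at day 7 lay far below. Against day 0, Nr1d1 rose in DM1 at day 7 (log2 fold change 0.86 ± 0.10, adjusted p = 1.26e-05), DM2 at day 2 (log2 fold change 0.76 ± 0.10, adjusted p = 4.48e-05), DM3 at day 2 (log2 fold change 0.82 ± 0.10, adjusted p = 2.06e-05) and DM3 at day 7 (log2 fold change 0.45 ± 0.10, adjusted p = 0.00169). It fell in DM2 at day 7 (log2 fold change -2.00 ± 0.10, adjusted p = 1.28e-08), where it was 6.79-fold lower than in the same medium at day 2 (log2 fold change -2.76 ± 0.11, adjusted p = 3.20e-09) and 5.45-fold lower than in DM3 at day 7 (log2 fold change 2.45 ± 0.10, adjusted p = 2.97e-09 for DM3 minus DM2). A lower level in DM3 at day 7 than in DM3 at day 2 (log2 -0.38) was lost without replicate 2 of DM3 at day 2 (0.0757) or replicate 1 of DM3 at day 7 (0.0787, range 2.61e-04 to 0.0985). The lower level in DM3 than in DM1 at day 7 (log2 -0.42) was lost without replicate 1 of DM3 (0.0507, range 1.00e-04 to 0.0507).

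Nr1d1 overlaps Thra, the thyroid hormone receptor α gene on the opposite strand, over 263 exon bases. The libraries keep the strand, but whether the counting used it is not given in the sources used here, and without it reads from the overlap cannot be told apart. Thra itself was at 41.3 and 39.5 CPM at day 0, 99.2 and 84.8 on day 2 of DM2, 50.4 and 56.9 on day 7 of DM2 and 110.3 and 114 on day 7 of DM3. From day 2 to day 7 in DM2 it fell by 0.78 on the log2 scale, against 2.76 for Nr1d1, and in DM2 at day 7 it was above day 0 (log2 0.41, adjusted p = 0.00293) while Nr1d1 was below.

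Nr1d2 encodes REV-ERBβ, which overlaps in function with REV-ERBα (ENSMUSG00000021775, chromosome 14, 18204054 to 18239127, minus strand). Levels were 89.6 and 86.7 CPM before the change of medium, 106 and 97.7 CPM after 2 days of DM1 and 101 and 105 CPM after 7. After 2 days of DM2 they were 95.6 and 106 CPM and after 7 days 36.5 and 29.1 CPM, and in DM3 they were 115 and 115 and then 77.0 and 73.1 CPM. Only DM2 at day 7 and, less so, DM3 at day 7 lay below day 0. Against day 0 it fell in DM2 at day 7 (log2 fold change -1.43 ± 0.10, adjusted p = 2.15e-07), and the difference in DM3 at day 7 of -0.23 ± 0.10 did not pass (adjusted p = 0.0652). It was 3.07-fold lower in DM2 at day 7 than at day 2 (log2 fold change -1.62 ± 0.10, adjusted p = 1.21e-07). The rise in DM3 at day 2 (log2 fold change 0.39 ± 0.10, adjusted p = 0.00643) was lost without the 3 libraries of low pseudogene share (0.0634, range 0.00102 to 0.0634).

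Dbp encodes a PAR bZIP factor that carries the rhythm to D-box genes, and it is a well known direct target of CLOCK and BMAL1 (ENSMUSG00000059824, chromosome 7, 45705088 to 45710203, plus strand). Its level at day 0 was 15.4 and 14.5 CPM, and with DM1 it was 33.6 and 31.6 CPM on day 2 and 69.7 and 63.0 CPM on day 7. With DM2 the values were 75.4 and 63.6 CPM on day 2 and 4.74 and 6.14 CPM on day 7, and with DM3 they were 62.8 and 67.2 and then 49.9 and 47.9 CPM. All groups but DM2 at day 7 lay above day 0 with no overlap. Dbp rose over day 0 by 4.65-fold in DM2 at day 2 (log2 fold change 2.22 ± 0.12, adjusted p = 6.60e-08), 4.43-fold in DM1 at day 7 (log2 fold change 2.15 ± 0.12, adjusted p = 3.15e-08) and 2.18-fold in DM1 at day 2 (log2 fold change 1.12 ± 0.12, adjusted p = 3.35e-05). In DM2 it then fell 12.8-fold between day 2 and day 7 (log2 fold change -3.67 ± 0.13, adjusted p = 2.17e-09), to a level 2.75-fold under day 0 (log2 fold change -1.46 ± 0.13, adjusted p = 1.07e-06). In DM3 at day 7, with the same cocktail in another serum, Dbp was 8.98-fold above DM2 (log2 fold change 3.17 ± 0.13, adjusted p = 2.26e-09). Against DM1 at day 7 it was lower in DM3 by 0.44 on the log2 scale, a call that was lost without replicate 1 of DM1 (0.0649) or replicate 2 of DM3 (0.0543, range 2.80e-04 to 0.0649). Within DM3 its fall from day 2 to day 7 (log2 -0.41) was lost without replicate 2 of DM3 at day 2 (0.0565) or replicate 2 of DM3 at day 7 (0.069, range 5.93e-04 to 0.0720).

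Dbp shares 539 exon bases with Sphk2, the sphingosine kinase gene on the opposite strand. Sphk2 was at 22.6 and 19.1 CPM at day 0, 21.9 and 18.0 in DM2 at day 2 and 29.6 and 35.1 in DM2 at day 7. It rose from day 2 to day 7 in DM2 (log2 fold change 0.70 ± 0.15, adjusted p = 0.00174), the opposite direction to Dbp.

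**Figure D2:**
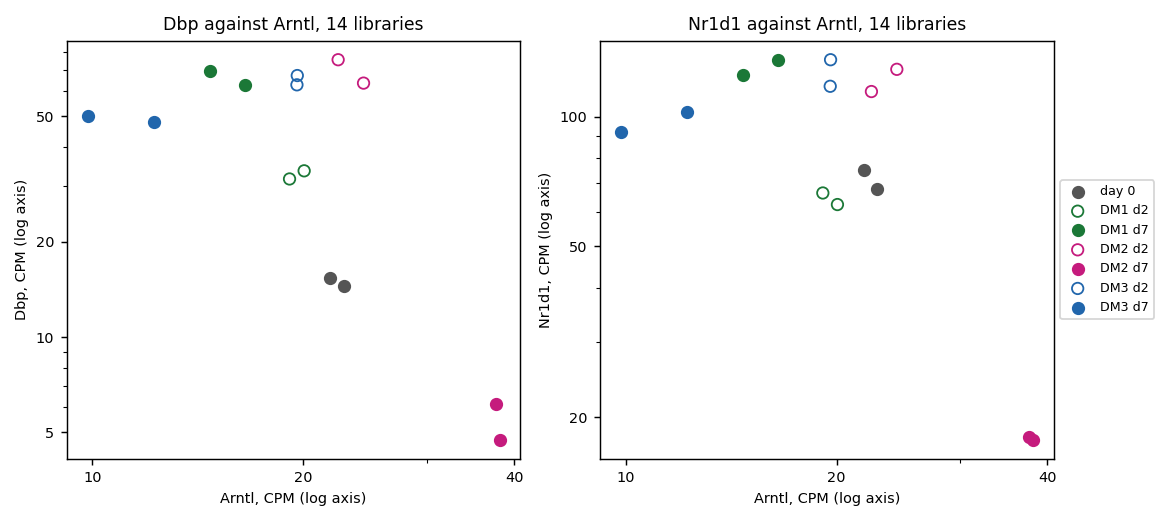
Level of Dbp (left) and Nr1d1 (right) against Arntl in the 14 libraries, in CPM on logarithmic axes. Open points are day 2 and filled points day 7 or day 0. The 2 libraries of DM2 at day 7 lie alone at high Arntl and low Dbp and Nr1d1, and the 2 libraries of DM3 at day 7 have the lowest Arntl.

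The ratio of Dbp to Arntl in each library sums up this shift. It was 0.703 and 0.636 at day 0, 1.67 and 1.66 on day 2 of DM1, and 4.74 and 3.81 on day 7 of DM1. It was 3.36 and 2.61 on day 2 of DM2 and 3.21 and 3.43 on day 2 of DM3. At day 7 it was 5.07 and 3.92 in DM3 but 0.124 and 0.163 in DM2, the lowest of the study. The ratio of Nr1d1 to Arntl was likewise 0.466 and 0.478 in DM2 at day 7 and from 2.97 to 9.37 in the 12 other libraries.

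Across the 14 libraries, Nr1d1 and Dbp had a Pearson r of 0.94 on the scale of log2(CPM + 0.5), Nr1d1 and Nr1d2 0.90, Arntl and Dbp -0.70 and Arntl and Nr1d1 -0.71. These are descriptions over 7 pairs of libraries of the same group. Without the 2 libraries of DM2 at day 7, a check added after the data were seen, r over the other 12 was 0.83 for Nr1d1 and Dbp, 0.34 for Nr1d1 and Nr1d2, -0.26 for Arntl and Dbp and -0.12 for Arntl and Nr1d1. The inverse relation of Arntl to both genes therefore rests on that group. For Cry1 and Nr1d2, r was -0.79 over all libraries and -0.85 without the group.

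The first comparison asked how the clock genes stood in each medium and day against proliferating cells. Of the 10 genes, 5 passed in DM1 at day 2, where 29.7% of all genes tested passed. Of these, 4 were higher (15.2% of all genes) and 1 lower (14.6%). By day 7 in DM1, 8 passed, against 53.5% of all genes, 6 of them higher (27.7%) and 2 lower (25.8%). In DM2 at day 2, 6 passed, against 49.7%, with 5 higher (23.5%) and 1 lower (26.2%). All 10 passed in DM2 at day 7, against 55.4%, with 5 higher (24.5%) and 5 lower (30.9%). In DM3 at day 2, 8 passed, against 50.9%, with 6 higher (25.5%) and 2 lower (25.4%). In DM3 at day 7, 9 passed, against 59%, with 6 higher (28.9%) and 3 lower (30.1%). The genes higher in DM1 at day 2 were Per1, Per3, Cry2 and Dbp. The genes lower in DM2 at day 7 were Clock, Per3, Nr1d1, Nr1d2 and Dbp, and those higher were Arntl, Per1, Per2, Cry1 and Cry2. The 6 comparisons share the day 0 libraries. With 10 genes, the share that passed lay closest to that of all genes in DM2 at day 2 (6 of 10) and farthest from it in DM2 at day 7 (10 of 10). The count for DM1 at day 2 was lower without replicate 2 of day 0 and without either library of DM1 at day 2. It was also lower without the 3 libraries of low pseudogene share, as was the count for DM3 at day 2. The share of all genes that passed in those fits is not given here. The lower counts are thus not a result about the clock genes.

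**Figure D3:**
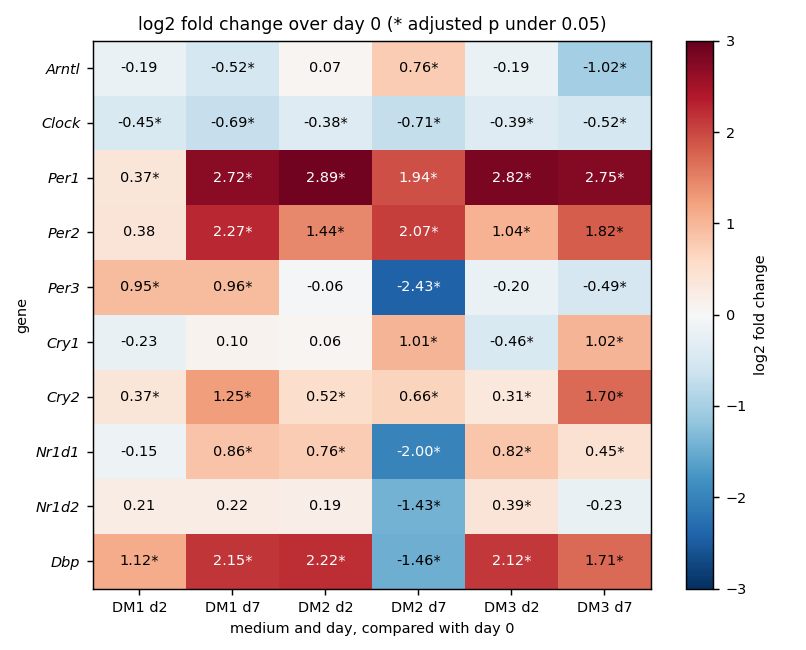
Log2 fold change over day 0 of each clock gene (rows) in each medium and day (columns), from edgeR's fit to all libraries. Red is higher and blue lower than day 0, and a star marks an adjusted p under 0.05. The column of DM2 at day 7 differs from the rest in the lower rows, with -2.00 for Nr1d1, -1.43 for Nr1d2 and -1.46 for Dbp.

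The second comparison, of day 7 with day 2 in the same medium, gave 7 genes in DM1, against 34.3% of all genes, with 6 higher (16.8%) and Arntl lower (17.5%). In DM2 it gave 9 genes, against 54.8%. There Arntl, Per2 and Cry1 were higher (25.4% of all genes), and Clock, Per1, Per3, Nr1d1, Nr1d2 and Dbp lower (29.4%). In DM3 it gave 7, against 47.9%. Here Per2, Cry1 and Cry2 were higher (22.6% of all genes), and Arntl, Nr1d1, Nr1d2 and Dbp lower (25.3%). Arntl thus fell in DM1 and DM3 and rose in DM2, and its log2 changes were -0.33 ± 0.11, -0.83 ± 0.11 and 0.70 ± 0.11. Per2 rose in each medium, by 1.88 ± 0.16 in DM1, 0.63 ± 0.15 in DM2 and 0.77 ± 0.15 in DM3 on the log2 scale.

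The third comparison, DM3 against DM1, differs in the cocktail at the same serum. At day 2, 5 of the 10 genes passed, where 37% of all genes passed (17.6% higher and 19.4% lower). Per1 (2.46 ± 0.11 on the log2 scale), Dbp (1.00 ± 0.12), Nr1d1 (0.97 ± 0.10) and Per2 (0.66 ± 0.16) were higher, and Per3 (-1.15 ± 0.15) lower, with the cocktail. At day 7, 8 passed against 47.7% of all genes (22.7% higher and 25.1% lower). Cry1 (0.92 ± 0.10) and Cry2 (0.45 ± 0.10) were higher with the cocktail, and Per3 (-1.45 ± 0.15), Arntl (-0.50 ± 0.11), Nr1d2 (-0.46 ± 0.10), Per2, Dbp and Nr1d1 lower. For Per1 the difference at day 7 was 0.03 ± 0.10 (adjusted p = 0.840). The change of this difference from day 2 to day 7, tested as an interaction, passed for 8 genes, against 34.9% of all genes (16.3% higher and 18.7% lower), and was -2.43 ± 0.15 for Per1 (adjusted p = 4.12e-07), -1.44 ± 0.16 for Dbp and 1.15 ± 0.15 for Cry1.

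The fourth comparison, DM3 against DM2, differs in the serum at the same cocktail. At day 2 only Cry1 passed (log2 fold change -0.51 ± 0.10, adjusted p = 0.00596), where 16.3% of all genes passed (9.98% higher and 6.31% lower). That call was lost without the 3 libraries of low pseudogene share (0.0652) and when the compared groups were fitted alone (0.116), within a range of 0.00171 to 0.116, and a second gene passed without replicate 2 of DM3 at day 2. At day 7, 7 of the 10 genes passed, against 52.7% (27.5% higher and 25.2% lower). Dbp (3.17 ± 0.13 on the log2 scale), Nr1d1 (2.45 ± 0.10), Per3 (1.94 ± 0.17), Nr1d2 (1.19 ± 0.10), Cry2 (1.04 ± 0.10) and Per1 (0.81 ± 0.10) were higher in 2% HS, and Arntl (-1.78 ± 0.11) lower. Clock, Per2 and Cry1 did not pass (adjusted p = 0.256, 0.174 and 0.995). The change of the difference from day 2 to day 7 passed for 8 genes, against 39.8% of all genes (20% higher and 19.8% lower), and was 3.26 ± 0.17 for Dbp (adjusted p = 1.25e-07), 2.39 ± 0.14 for Nr1d1, 2.09 ± 0.22 for Per3 and -1.52 ± 0.15 for Arntl.

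DM2 against DM1 differs in both serum and cocktail. At day 2, 6 genes passed against 39.4% of all genes (17.5% higher and 21.9% lower), with Per1 (2.52 ± 0.11 on the log2 scale), Dbp (1.09 ± 0.12), Per2 (1.06 ± 0.15), Nr1d1 (0.92 ± 0.10) and Cry1 (0.28 ± 0.10) higher and Per3 lower. At day 7, 8 passed against 57.8% (26.5% higher and 31.4% lower), with Arntl (1.28 ± 0.11) and Cry1 (0.91 ± 0.10) higher and Dbp (-3.61 ± 0.13), Per3, Nr1d1 (-2.86 ± 0.11), Nr1d2 (-1.65 ± 0.10), Per1 (-0.77 ± 0.10) and Cry2 (-0.59 ± 0.10) lower. Dbp, Nr1d1 and Per1 were thus higher in DM2 than in DM1 at day 2 and lower at day 7.

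**Figure D4:**
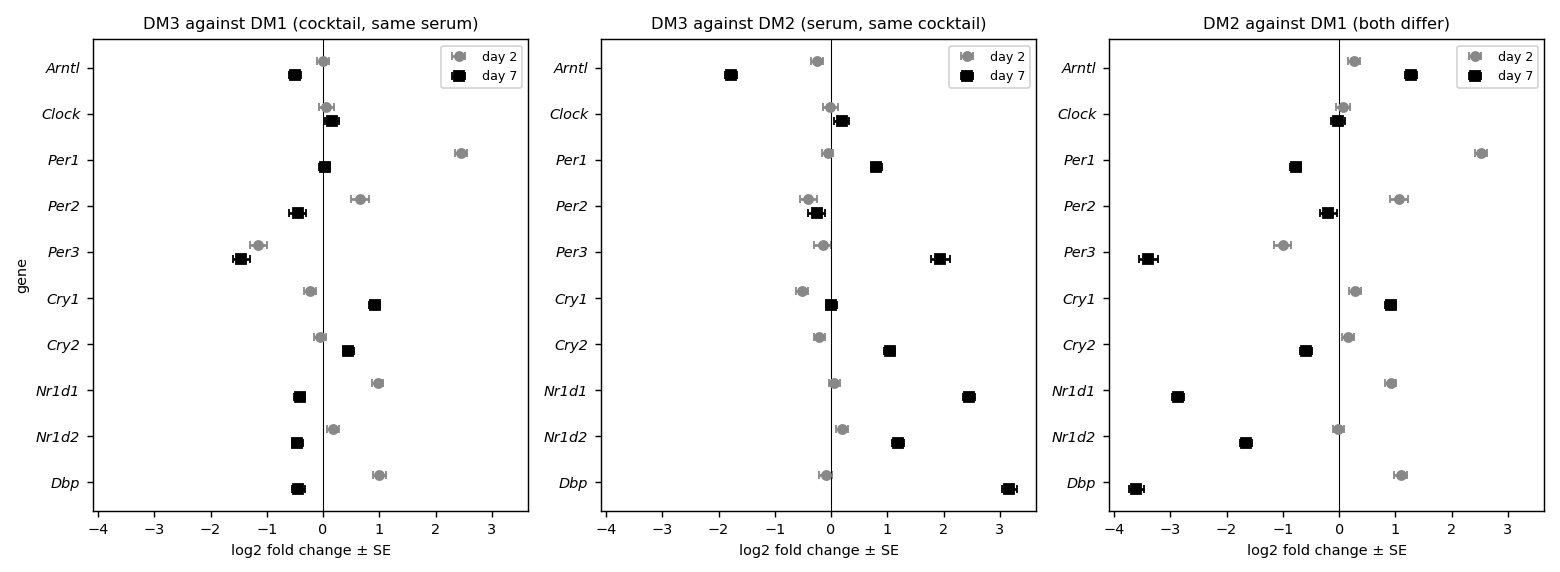
Log2 fold change ± SE of each clock gene between media, DM3 against DM1 (left), DM3 against DM2 (middle) and DM2 against DM1 (right), at day 2 (grey circles) and day 7 (black squares). In the middle panel the day 2 points lie near 0 while the day 7 points reach 3.17 for Dbp and -1.78 for Arntl.

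A list of 30 partners and regulators of the clock gives the wider pathway, and all 30 were tested. Against day 0, DM1 had 4 higher and 5 lower on day 2, near the shares of all genes (15.2% higher, 14.6% lower), then 14 and 6 on day 7 (27.7% and 25.8%). DM2 had 12 higher and 6 lower on day 2 (23.5% and 26.2% of all genes), then 12 and 11 on day 7 (24.5% and 30.9%). DM3 had 13 higher and 7 lower on day 2 (25.5% and 25.4% of all genes), then 14 and 9 on day 7 (28.9% and 30.1%). The list's median log2 fold change ran from -0.02 (DM2 at day 7) to 0.22 (DM3 at day 2), where the median over all genes was -0.03 in both.

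Rora, the ROR receptor that activates Arntl, was at 0.977 and 1.33 CPM at day 0 and 1.43 and 1.13 in DM1 at day 2. It was at 9.68 and 10.1 CPM in DM3 at day 7 and 22 and 20.0 in DM2 at day 7, its highest level. Its rise over day 0 in DM2 at day 7 was 18.1-fold (log2 fold change 4.18 ± 0.22, adjusted p = 1.47e-08), in the group where Arntl was highest and Nr1d1 lowest. In DM3 at day 7, where Rora was also above its day 0 libraries, Arntl was at its lowest (9.85 and 12.2 CPM). The part of Rora in the level of Arntl was not tested. Npas2, a stand-in for CLOCK, was highest on day 7 of DM1 at 2.60 and 3.09 CPM and was at 1.74 and 1.5 at day 0 and 0.718 and 1.07 on day 7 of DM3.

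Among the other factors that bind D-boxes, Tef was lowest in DM2 at day 7 and highest in DM3 at day 7. Tef, an activator of D-boxes, was at 104 and 94.8 CPM at day 0, 58.0 and 55.6 on day 7 of DM2 and 274 and 264 on day 7 of DM3, and fell below day 0 in the first of these groups (log2 fold change -0.81 ± 0.08, adjusted p = 3.13e-06). Nfil3, the repressor at D-boxes, was at 24.6 and 19.4 CPM at day 0 and highest in DM2 at day 7 at 70.7 and 81.7 (log2 fold change 1.79 ± 0.14, adjusted p = 3.80e-07). Hlf, the third D-box activator, had only 2 and 8 counts at day 0 and reached 21.1 and 19.0 CPM in DM3 at day 2 and 19.8 and 16.0 in DM2 at day 7. Its rise over day 0 in DM3 at day 2 was 113-fold (log2 fold change 6.83 ± 0.31, adjusted p = 1.04e-08) and 72.2-fold without replicate 1 of day 0. Without replicate 2 of day 0 only 2 counts remain in the control, for a ratio of 286 (95% interval of counting error 79 to 2370).

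The repressors Bhlhe40 and Bhlhe41 (DEC1 and DEC2), which compete for E-boxes, were highest in DM3 at day 7. Bhlhe41 was at 49.3 and 51.2 CPM at day 0, 78.9 and 86.5 on day 7 of DM2 and 302 and 299 on day 7 of DM3. Bhlhe40 was at 115 and 117, 214 and 203 and 284 and 294 CPM in the same groups. Ciart, a repressor known as CHRONO, was lowest in DM3 at day 2 at 0.880 and 0.966 CPM and highest in DM2 at day 7 at 6.81 and 8.52, against 3.07 and 2.90 at day 0. It rose over day 0 in DM2 at day 7 (log2 fold change 1.36 ± 0.19, adjusted p = 5.23e-05), opposite to Dbp.

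Usp2, a deubiquitinase known to cycle in many tissues, was at 1.60 and 1.70 CPM at day 0 and 59.1 and 62.0 on day 7 of DM3, a 36.5-fold rise (log2 fold change 5.19 ± 0.14, adjusted p = 4.29e-11). In DM2 it went from 27.5 and 26.4 CPM at day 2 to 7.07 and 5.68 at day 7, a fall (log2 fold change -2.08 ± 0.12, adjusted p = 4.89e-08). Sik1, a kinase induced by cAMP, was at 65.3 and 57.8 CPM at day 0 and 554 and 612 on day 7 of DM3 (log2 fold change 3.24 ± 0.11, adjusted p = 2.05e-10). Of 11 cAMP targets including Sik1, 8 were higher and 2 lower than day 0 in DM3 at day 7, where 28.9% of all genes were higher and 30.1% lower. DM2, which holds the same cocktail, had 5 higher and 3 lower at day 7 (24.5% and 30.9% of all genes), and DM1 had 4 and 3 (27.7% and 25.8%). At day 2 the counts were 6 and 2 for DM3 (25.5% and 25.4%), 5 and 4 for DM2 (23.5% and 26.2%), and 3 and 0 for DM1 (15.2% and 14.6%).

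**Figure D5:**
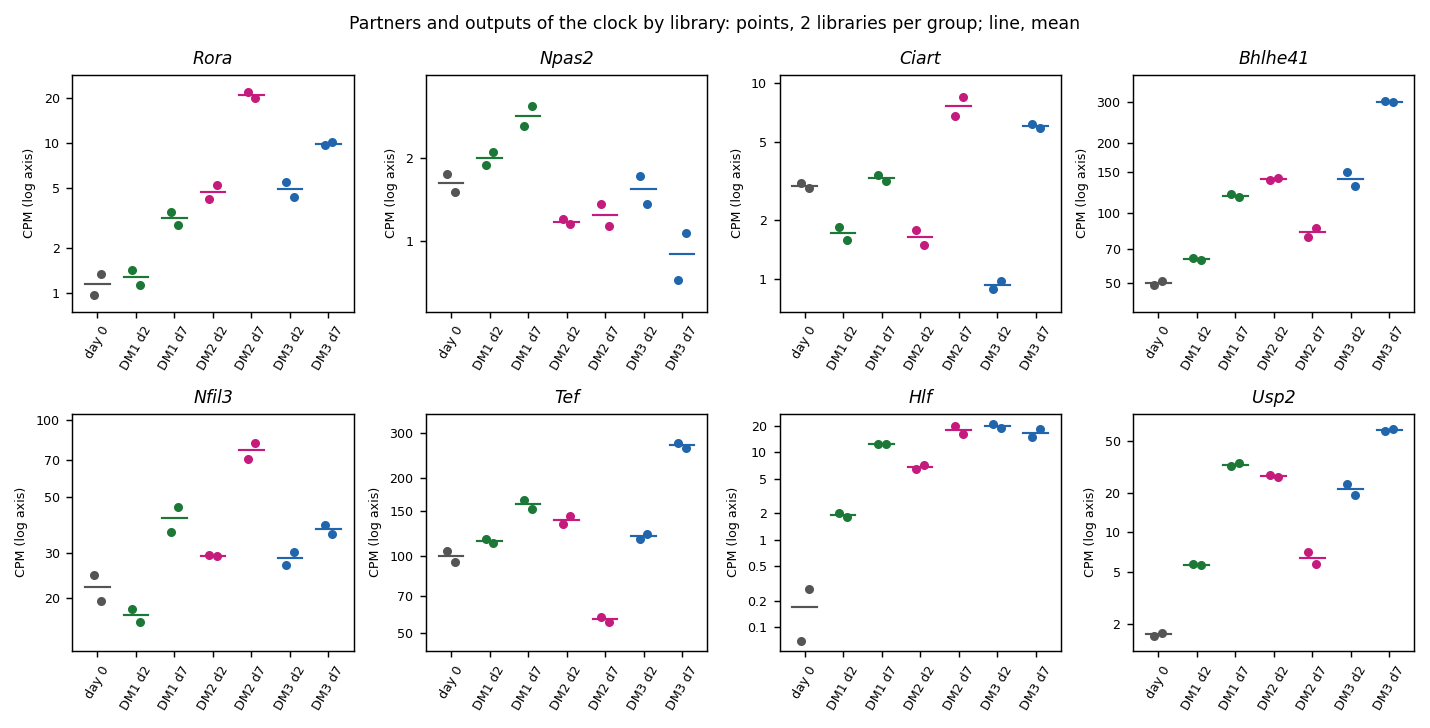
Level of 8 partners and outputs of the clock in CPM (vertical axis, logarithmic, a different range in each panel) in the 7 groups. Points are the 2 libraries of a group and the line is their mean. In DM2 at day 7 Rora and Nfil3 were at their highest and Tef at its lowest, and Usp2 and Bhlhe41 were highest in DM3 at day 7.

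For 5 clock genes the 3 genes most similar in pattern over the 14 libraries were found by Pearson's r on the scale of log2(CPM + 0.5). The search covered 10622 genes with a mean of at least 5 CPM, so that each r is among the highest of many. For these genes no r was computed without DM2 at day 7, where Dbp and Nr1d1 were lowest and Arntl highest. For Dbp they were Dlg4 (0.99), Lix1l (0.98) and Rtn2 (0.98), and Dlg4, a scaffold protein of synapses, had group means from 26.2 CPM in DM2 at day 7 to 81.4 in DM3 at day 2. For Nr1d1 they were Phf13 (0.98), Txnip (0.97) and Epn2 (0.97), and Txnip, an inhibitor of thioredoxin, was at 1.3 CPM in DM2 at day 7 and 749 in DM1 at day 7. For Per1 they were Glul (0.98), Cblb (0.98) and Plin4 (0.98), and Glul, glutamine synthetase, had group means from 80.5 CPM at day 0 to 454 in DM3 at day 7. For Per2 they were Gpx3 (0.97), Ifi207 (0.97) and Cebpd (0.97), and for Arntl Abcc4 (0.99), Isoc1 (0.97) and Cdr2l (0.95). Abcc4, an exporter of cyclic nucleotides, was at 11.0 CPM in DM3 at day 7 and 141 in DM2 at day 7. These are also the lowest and highest groups of Arntl, by whose pattern Abcc4 was picked.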

How the data were processed

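RNA of 14 libraries was measured by poly(A) RNA-seq (single-end reads of 50 bases, strand-specific kit). The authors deposited 1 table of expected counts per gene, made with STAR 2.5.1b and RSEM 1.2.31 on GRCm38.p5, per the submitters' processing notes; the strand setting of the counting is not given in the sources used here. Expected counts were rounded (all values of the clock genes were whole). Genes were filtered with filterByExpr, scaled by TMM and tested with the quasi-likelihood test of edgeR 4.0.16 (R 4.3.3, limma 3.58.1), in 1 fit of 7 groups with 7 residual degrees of freedom. P-values were adjusted by Benjamini-Hochberg over all 15973 genes in each of 15 comparisons of 2 groups and 2 tests of a difference between days, with a threshold of 0.05. Standard errors were taken as the size of the log2 fold change over the square root of its F statistic. In counts simulated from the mean and spread of each gene, DM2 at day 7 was compared with day 0. There 19 of 50 genes changed 1.5-fold were called, 33 of 50 at 2-fold and 45 of 50 at 4-fold, with 8 false calls. How many true changes the tests miss in the measured data, and how many calls are false, was not tested. The interval given for the Hlf ratio was computed from the counts alone, so that it covers counting error and leaves out the spread between libraries. Copies of 1 molecule could not be told apart, since reads carry no molecular identifiers.

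Alternatives were DESeq2 1.42.0, other scalings, no filter, the compared groups alone, a replicate block, and leaving out each library or the 3 of low pseudogene share. Positions come from Gencode vM21, which holds 49412 of the 49671 identifiers. The clock genes and all lists were chosen with earlier results of these data known. Named besides the clock genes were 9 fixed partners, the 4 partners with the largest change against day 0, overlapping genes, and the 3 genes most alike in pattern to each of 5 clock genes; 1 of the fixed partners is not reported here.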

Additional observations from a re-analysis of the deposited data

Results flagged for a closer look

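Each result here was singled out because the effect of a medium differed between day 2 and day 7, by edgeR's test of the difference itself (the interaction). For DM3 against DM1, the log2 difference at day 7 minus that at day 2 was -2.43 for Per1, -1.44 for Dbp, -1.39 for Nr1d1, -1.11 for Per2, -0.63 for Nr1d2 and -0.50 for Arntl. It was 1.15 for Cry1 and 0.50 for Cry2. Per1, Dbp and Nr1d1 were higher in DM3 than in DM1 at day 2, and at day 7 the levels of Dbp and Nr1d1 were lower in DM3. The result for Arntl was lost without any 1 of 5 libraries (adjusted p from 0.0516 to 0.113, range over all alternatives 0.00604 to 0.113): either library of DM1 at day 2, replicate 2 of DM3 at day 2, replicate 2 of DM1 at day 7 and replicate 1 of DM3 at day 7. The result for Cry2 was lost without replicate 2 of DM1 at day 2, of DM3 at day 2 or of DM3 at day 7 (adjusted p = 0.0581, 0.0561 and 0.0587, range 0.0121 to 0.0986).

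For DM3 against DM2, the same quantity was 3.26 for Dbp, 2.39 for Nr1d1, 2.09 for Per3, 1.25 for Cry2, 1.00 for Nr1d2, 0.87 for Per1 and 0.52 for Cry1. For Arntl it was -1.52. The result for Cry1 was lost without replicate 1 of DM3 at day 7 (adjusted p = 0.0616) or replicate 2 of DM2 at day 2 (0.0522, range 0.00520 to 0.0616). Both sets of differences share the libraries of DM3.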

How the results depend on the processing

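Of 120 calls of a clock gene in a comparison, 95 held under every alternative tried, 25 were lost under at least 1, and none changed sign. Of the 50 gene and comparison pairs that did not pass, 7 passed under at least 1 alternative. No fold of a called clock gene moved by more than 1.24 times. Without the 3 libraries of low pseudogene share, 2 clock genes passed in DM1 at day 2 against day 0 (5 with all libraries), 5 in DM3 at day 2 against day 0 (8), and 0 in DM3 against DM2 at day 2 (1), where edgeR gave 2 at an unadjusted p under 0.05. With the compared groups fitted alone, 0 passed in DM3 against DM2 at day 2 (1 at an unadjusted p under 0.05 in edgeR), where DESeq2 with all libraries gave 1. Leaving out a library leaves 1 in its group, assumed to vary like those of the other groups. With any 1 library of the compared groups left out, fewer clock genes passed in DM1 at day 2 against day 0. In DM3 against DM2 at day 2 the count did not fall. The share of all genes that passed in these fits is not given here. Lower counts are thus not a result about the clock genes. DESeq2 lost 4 of the 120 calls, library totals alone 4, no filter on low counts 3, the compared groups alone 6 and relative log expression scaling 1. Deviations of same-numbered libraries had a median correlation of 0.02 over 21 pairs of groups, 3 over 0.1 and 4 under -0.1. The range was -0.747 to 0.678, so that some groups shared a deviation, with the same or the opposite numbers. Its source was not tested. Since both signs occurred, the numbers were not taken to pair libraries. A fit with the replicate number as a block lost 2 calls, Clock in DM2 at day 7 against day 2 (adjusted p = 0.0543) and Cry1 in DM2 against DM1 at day 2 (0.0536). Without DM2 at day 7, r of Per3 and Dbp over libraries went from 0.68 to -0.0376, the construction leaving out the group lowest in both. The number of clock genes with an E-box or a D-box did not change in windows of 250 bases, and the ROR element found for Arntl is outside them. The smallest count of a clock gene in a library was 71, and the effect of depth on the calls was not tested.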
